A study of Mus musculus with 12 samples.

Results

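The genes described here are 10 that mark type I pneumocytes, the flat cells that line the gas-exchange surface of the lung: *Ager*, *Pdpn*, *Hopx*, *Aqp5*, *Cav1*, *Akap5*, *Clic5*, *Rtkn2*, *Emp2* and *Cldn18*. They were chosen by name, with earlier results of these data known. All 10 were found among the 52550 genes of the count table, and all 10 passed the filter on low counts that left 15885 protein-coding genes for testing. RNA was sequenced from whole lungs of mouse pups on postnatal day 5, and the 12 libraries fell into 4 groups of 3. Wild-type (WT, *Adm*+/+) and Adm+/- pups, which carry 1 disrupted allele of the adrenomedullin gene, received either lipopolysaccharide (LPS) of *Escherichia coli* or phosphate-buffered saline (PBS) into the peritoneum. LPS was given at 6 mg/kg on 3 consecutive days from postnatal day 3, and lung tissue was collected 6 h later than the final injection. Both genotypes were on the C57BL/6J background, the disruption is present in every cell type, and pups without any functional *Adm* allele were not part of the design because they die before birth. A library is named below by its group and the number in its title.

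Type I pneumocytes cover most of the alveolar surface and form, with the capillary endothelium beneath them, the barrier across which gas diffuses. They arise from distal epithelial progenitors before birth and, after injury, from type II pneumocytes, the surfactant-making cells that lie between them. The 10 genes cover several of their features. *Ager* encodes the receptor for advanced glycation end products, *Pdpn* the mucin-type membrane protein podoplanin, *Aqp5* a water channel, *Cav1* the coat protein of caveolae, *Clic5* a chloride intracellular channel protein, *Emp2* a tetraspan membrane protein, *Cldn18* a tight junction claudin, *Akap5* an anchor of protein kinase A, *Rtkn2* rhotekin 2 and *Hopx* a homeodomain protein that does not bind DNA. Several are not exclusive to these cells. *Cav1* is abundant in endothelium, *Pdpn* in lymphatic endothelium and mesothelium, and *Cldn18* is also made by type II pneumocytes. In RNA from whole lung, fewer cells of a type and less RNA per cell cannot be told apart.

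Library totals ranged from 22382535 to 38062873 counts, with a median of 28494877. WT PBS 5 and Adm+/- PBS 6 stood apart from the other libraries. The share of counts in protein-coding genes was 77.8% and 80.1% in these and 84.3% to 87.6% in the rest. That of the noncoding gene *Gm26917* was 16.6% and 13.3%, with 5.42% to 7.4% in the rest. Genes typical of other tissues were high in WT LPS libraries, and the source of this RNA was not tested. The summed level of 10 skeletal muscle genes was 1745, 1895 and 739 CPM (counts scaled to the normalised library size) in WT LPS 9, 10 and 11, against 7.57 to 33.2 in the other groups. That of 10 squamous epithelial genes was 3409, 33.4 and 1749 CPM, against 3.74 to 47.8 in the other groups. WT LPS 10 thus lay within the squamous range of the other groups. *Adm*, the targeted gene, averaged 5.21 ± 1.66 CPM (SD, n = 3) in WT PBS and 3.69 ± 0.855 CPM in Adm+/- PBS libraries. The ranges overlapped, and the log2 difference of -0.50 had an adjusted p of 0.999 in edgeR's quasi-likelihood test. In that comparison 0 of all tested genes were called in either direction. The paper reports that the genotype was established by genotyping and by real-time RT-PCR of lung *Adm*.

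The type I genes were well expressed. Compared between genes as depth- and exon-length-scaled counts (RPKM), *Ager* was highest in all 4 groups, at 605 ± 165 RPKM in WT PBS libraries (SD, n = 3). *Cldn18* followed at 153 ± 4.05 RPKM and *Cav1* at 111 ± 39.5 RPKM. From *Cav1* down, each gene's range in WT PBS overlapped that of the next, through *Emp2* (82.4 RPKM), *Akap5* (73.0), *Hopx* (59.9), *Rtkn2* (46.3), *Clic5* (42.8), *Aqp5* (36.2) and *Pdpn* (26.2 ± 8.96). *Pdpn* was the lowest of the 10 in both PBS groups. It ranked 9 of 10 in WT LPS, where its range overlapped those of both neighbours, and 8 of 10 in Adm+/- LPS, where its range of 40.8 to 44.4 RPKM lay above that of *Aqp5*, 34.8 to 38.2 RPKM.

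Promoter windows of 250 bases before the annotated start were read from RefSeq (GRCm38.p6) for 9 of the 10 genes, in 12 windows. *Rtkn2* was not among them. The windows of *Pdpn*, the member that was higher after LPS in both genotypes, and of the first start of *Cav1*, the member with the most negative LPS log2 change in Adm+/- mice, are printed 5′ to 3′ because these genes lie at the ends of the range there. In WT mice *Ager* had the most negative value. Capitals mark matches to any of the 8 motifs searched. *Pdpn* lies on the minus strand (window chr4:143299565-143299814) and *Cav1* on the plus strand (chr6:17306085-17306334).
Pdpn: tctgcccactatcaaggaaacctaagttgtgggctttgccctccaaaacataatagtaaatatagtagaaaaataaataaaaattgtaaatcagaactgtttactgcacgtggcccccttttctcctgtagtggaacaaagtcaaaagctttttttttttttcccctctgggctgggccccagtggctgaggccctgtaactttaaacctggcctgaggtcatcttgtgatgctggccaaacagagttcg
Cav1: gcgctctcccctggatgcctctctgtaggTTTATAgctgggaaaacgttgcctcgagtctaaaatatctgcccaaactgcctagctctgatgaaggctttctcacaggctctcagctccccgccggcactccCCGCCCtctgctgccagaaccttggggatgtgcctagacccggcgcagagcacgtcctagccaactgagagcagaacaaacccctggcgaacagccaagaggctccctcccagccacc

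The first search, on both strands, was for 5 motifs of transcription factors: TEAD (CATTCC), STAT (TTCNNNGAA), AP-1 (TGANTCA), NF-kappa B and the NKX2-1 core (CACTTGA). None of the 12 windows held any of them. Of all 32851 promoters in the table, 12.6%, 7.02%, 6.75%, 7.25% and 2.68% did, in that order. After this was seen, 3 general promoter elements were added. The GC box (GGGCGG) was found in windows of 5 genes, *Aqp5*, *Cav1*, *Akap5*, *Clic5* and *Emp2*, and in 32.7% of all promoters. The CCAAT box (CCAAT) was found in windows of *Ager*, *Hopx* and *Akap5* and in 33.8% of all promoters, and the TATA box (TATAAA) in the *Cav1* window alone and in 12.4%. No matches to different motifs overlapped. The *Pdpn* window held none of the 8. In the *Cav1* window, the GC box began at -118 and the TATA box letters at -221 relative to the start. The absence of a match says only that these letters are not in these windows.

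**Figure D1:**
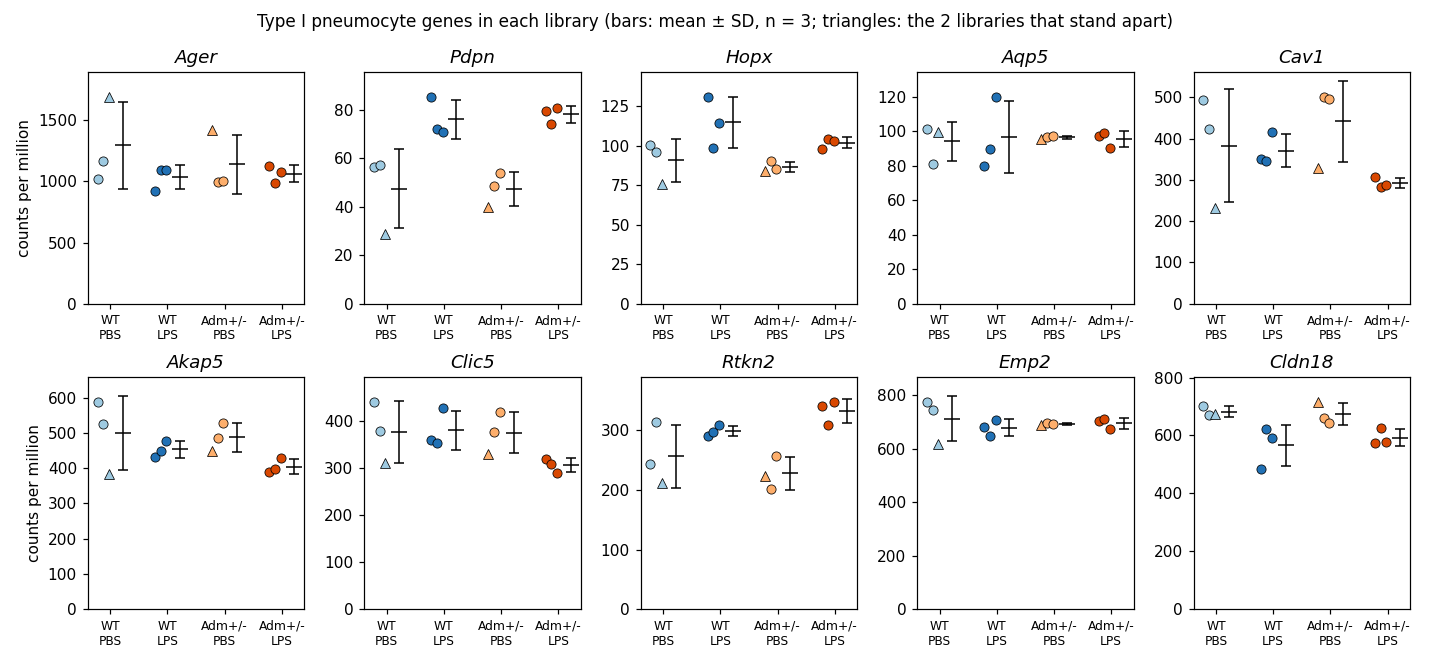
Level of each of the 10 genes (y axis, CPM) in each library, by group (x axis), with the group mean and SD beside the points (n = 3). Triangles are WT PBS 5 and Adm+/- PBS 6. *Pdpn* was higher in all LPS than in all PBS libraries, and the triangles often lie at the end of their group.

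The first question was whether the response to LPS reached these genes. A gene was called changed when its Benjamini-Hochberg adjusted p in edgeR's quasi-likelihood test, taken over all 15885 genes, was below 0.05 and its log2 fold change was beyond 0.5 in size. In WT mice, 1 of the 10 genes was called higher (*Pdpn*) and 0 were called lower, where 10.5% of all tested genes were called higher and 7.09% lower. The Adm+/- mice had 2 called higher (*Pdpn* and *Rtkn2*) and 0 lower, against 12.8% and 12.2% of all tested genes. At an unadjusted p under 0.05, 3 of the 10 passed in each genotype, as did 5830 of the 15885 genes in WT and 6639 in Adm+/- mice. DESeq2 and limma-voom also called 0 of the 10 lower in either genotype. In Adm+/- mice 1 of the 10, *Cav1*, was called lower without WT PBS 5, without Adm+/- PBS 6 or without both. It was also called lower with only the 6 Adm+/- libraries fitted. The median log2 change of the 10 was -0.02 in WT and -0.06 in Adm+/- mice, where the median of all genes was 0.01 and -0.01. The shares called were thus near those of the background. In WT mice, 2 of the 10 genes had LPS and PBS libraries that did not overlap, as did 36.2% of all genes. There were 7 such genes in Adm+/- mice, 3 higher and 4 lower, against 53.7% of all genes.

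**Figure D2:**
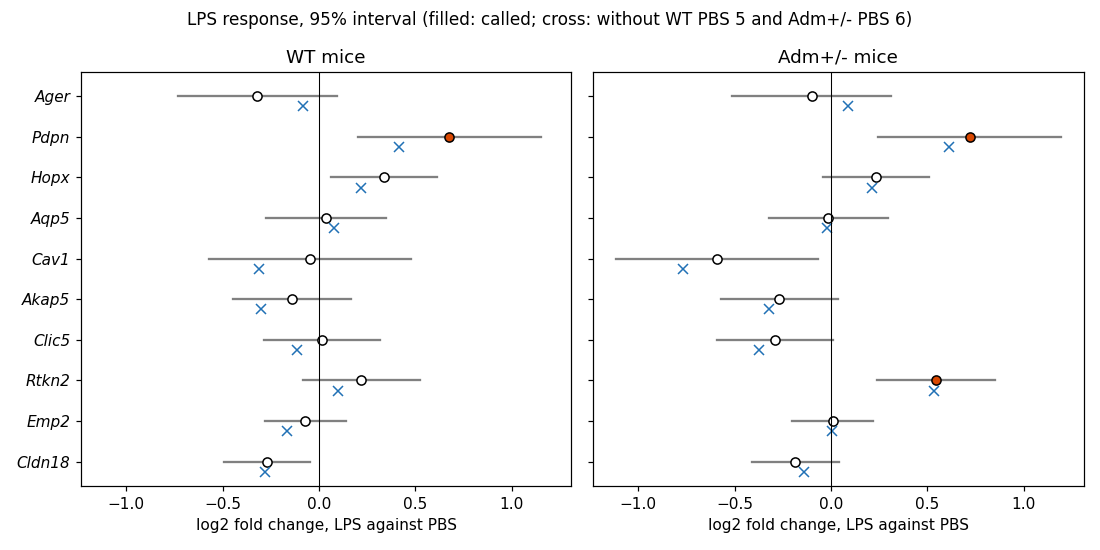
Log2 fold change of each gene, LPS against PBS (x axis), in WT and Adm+/- mice, with 95% intervals from the edgeR fit. Filled points were called, and crosses are the values without WT PBS 5 and Adm+/- PBS 6. *Pdpn* lies highest in both panels and *Cav1* lowest in Adm+/- mice.

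*Pdpn*, which encodes podoplanin (chr4:143267431-143299564, minus strand, mm10), was higher after LPS in both genotypes. In WT mice it measured 56.6, 57.3 and 28.7 CPM in PBS 3, 4 and 5, and 85.4, 72.2 and 70.7 CPM in LPS 9, 10 and 11. Its levels in Adm+/- mice were 40.1, 48.5 and 53.8 CPM in PBS 6, 7 and 8, and 79.7, 74.1 and 80.6 CPM in LPS 1, 2 and 12. Every LPS library was above every PBS library, and WT PBS 5 was the lowest of the 12. The log2 change was 0.68 (SE 0.22) in WT mice and 0.72 (SE 0.22) in Adm+/- mice, with edgeR adjusted p of 0.046 and 0.0272. The WT call sat close to the threshold: without WT PBS 5 the log2 change was 0.42 (adjusted p 0.0464, edgeR), below the size required, and without any other single library except WT PBS 3 or WT PBS 4 it ranged from 0.58 to 0.72 with adjusted p from 0.0501 to 0.172. The Adm+/- call was lost without Adm+/- LPS 1, 2 or 12 or without Adm+/- PBS 6 or 7, with log2 changes from 0.60 to 0.76 and edgeR adjusted p from 0.0533 to 0.105. Without both libraries that stood apart it was 0.61 (adjusted p 0.00134, edgeR). With only the 6 WT libraries fitted, the WT adjusted p was 0.153. Against the size threshold itself (glmTreat), *Pdpn* had adjusted p of 0.456 in WT and 0.292 in Adm+/- mice.

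Podoplanin is also made by lymphatic endothelium and mesothelium, and some markers of these were called higher too. Of 5 lymphatic endothelial genes, 3 were called higher in WT mice (*Lyve1*, *Reln*, *Mmrn1*) and 2 in Adm+/- mice (*Lyve1* and *Reln*), while *Prox1*, the transcription factor that defines these cells, had log2 changes of 0.47 and 0.31 with adjusted p of 0.0692 and 0.191. *Flt4*, a lymphatic growth factor receptor, had the opposite sign in WT mice, at -0.37 (edgeR adjusted p 0.0786), and 0.03 in Adm+/- mice. Without WT LPS 9, 2 of the 5 were called higher in WT mice. Their summed level ranged from 268 to 294 CPM in WT PBS, 409 to 546 CPM in WT LPS, 247 to 296 CPM in Adm+/- PBS and 515 to 608 CPM in Adm+/- LPS. Of 5 mesothelial genes, 1 was called higher in each genotype, *Upk1b* in WT and *Msln* in Adm+/- mice, and 0 in either without WT LPS 9. *Lrrn4*, also of this list, had log2 changes of -0.44 and -0.78 and was not called. Their summed level ranged from 158 to 231 CPM in WT PBS, 218 to 358 CPM in WT LPS, 143 to 184 CPM in Adm+/- PBS and 177 to 244 CPM in Adm+/- LPS. No defining marker was at 0. In WT LPS 9, the library with the most squamous RNA, *Pdpn* was the highest of the 12 libraries. The part of these cells in the *Pdpn* result was not tested.

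*Rtkn2*, which encodes rhotekin 2 (chr10:67979570-68059740, plus strand, mm10), was called higher in Adm+/- mice. It measured 224, 202 and 258 CPM in Adm+/- PBS 6, 7 and 8, and 341, 310 and 348 CPM in Adm+/- LPS 1, 2 and 12, so that the groups did not overlap. The log2 change was 0.55 (SE 0.14, edgeR adjusted p 0.0122). It was 0.47 (adjusted p 0.0533, edgeR) without Adm+/- PBS 7, the lowest library, and glmTreat gave an adjusted p of 0.575. In WT mice the PBS libraries measured 243, 315 and 212 CPM and the LPS libraries 291, 298 and 308 CPM. These overlapped, because WT PBS 4 exceeded all 3 LPS libraries, and the log2 change was 0.22 (SE 0.14, edgeR adjusted p 0.271). It was 0.10 (adjusted p 0.628) without WT PBS 5 and 0.39 (adjusted p 0.0493, below the size required) without WT PBS 4. The difference between the genotypes' responses was 0.33 (95% interval -0.10 to 0.76, edgeR adjusted p 0.803). With 1 library left out, this difference for *Rtkn2* ran from 0.15 (without WT PBS 4) to 0.45 (without WT PBS 5). The antisense gene *Gm16212* shares 216 exonic bases with *Rtkn2* and had at most 1.68% as many counts.

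*Cav1*, the caveolar coat protein (chr6:17306335-17341452, plus strand, mm10), had the most negative LPS log2 change of the 10 in Adm+/- mice. Among Adm+/- libraries it measured 328, 501 and 496 CPM in PBS 6, 7 and 8, and 307, 283 and 288 CPM in LPS 1, 2 and 12. All LPS libraries were below all PBS libraries, but Adm+/- PBS 6 was only just above them. The log2 change was -0.59 (SE 0.24), with an edgeR adjusted p of 0.0808, so it was not called. It was -0.78 (adjusted p 0.0447, edgeR) without Adm+/- PBS 6, -0.59 (adjusted p 0.0114) without WT PBS 5, -0.77 (adjusted p 0.000695) without both, and -0.59 (adjusted p 0.0159) when only the 6 Adm+/- libraries were fitted, and each of these would be a call. In WT mice the levels were 494, 423 and 231 CPM in PBS 3, 4 and 5, and 350, 347 and 416 CPM in LPS 9, 10 and 11. These overlapped, with WT PBS 5 below all LPS libraries, and the log2 change was -0.05 (SE 0.24, edgeR adjusted p 0.908), or -0.31 (adjusted p 0.0582) without the 2 libraries that stood apart. The difference between the genotypes' responses was -0.55 (95% interval -1.29 to 0.19, edgeR adjusted p 0.812). For *Cav1* it ran from -0.77 (without WT PBS 3) to -0.28 (without WT PBS 5) when 1 library was left out. *Cav1* is abundant in endothelium, and of 10 vascular endothelial genes 2 were called lower and 0 higher in each genotype, with a median log2 change of -0.30 in WT and -0.08 in Adm+/- mice. Without WT LPS 9, 1 was called lower in WT mice, and without both libraries that stood apart 3 were in Adm+/- mice. Their part in the *Cav1* values was not tested.

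*Hopx* and *Cldn18* were not called, with log2 changes of 1 sign in both genotypes. *Hopx*, the atypical homeodomain protein, measured 101, 96.1 and 75.5 CPM in WT PBS 3, 4 and 5, and 131, 98.7 and 115 CPM in WT LPS 9, 10 and 11, which overlapped. Its log2 changes were 0.34 (SE 0.13, edgeR adjusted p 0.0749) in WT and 0.23 (SE 0.13, adjusted p 0.183) in Adm+/- mice, where PBS libraries ran from 84.2 to 90.4 CPM and LPS libraries from 97.8 to 105 CPM. The WT value of *Hopx* was 0.22 (edgeR adjusted p 0.195) without WT PBS 5, 0.23 (adjusted p 0.302) without WT LPS 9 and 0.43 (adjusted p 0.0398, below the size required) without WT LPS 10. The antisense gene *Hopxos* shares 412 exonic bases with *Hopx* and had up to 11.1% as many counts, and whether counting used strand is not given in the sources used here. *Cldn18*, the tight junction claudin, measured 703, 669 and 675 CPM in WT PBS 3, 4 and 5, and 486, 622 and 591 CPM in WT LPS 9, 10 and 11. The groups did not overlap in either genotype, and the log2 changes were -0.27 (SE 0.10, edgeR adjusted p 0.0807) and -0.18 (SE 0.10, adjusted p 0.195). WT LPS 9 was the highest library for *Hopx* and the lowest for *Cldn18*. Without it, the WT log2 change of *Cldn18* was -0.18 (edgeR adjusted p 0.288).

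The other 5 genes showed small differences. *Ager*, the most abundant, measured 1023, 1167 and 1693 CPM in WT PBS 3, 4 and 5, and 924, 1090 and 1095 CPM in WT LPS 9, 10 and 11. Among Adm+/- libraries it measured 1420, 999 and 1003 CPM in PBS 6, 7 and 8, and 1130, 987 and 1076 CPM in LPS 1, 2 and 12. The highest library of each PBS group was the one that stood apart, and the groups overlapped in both genotypes. The log2 changes were -0.32 (95% interval -0.73 to 0.09) in WT and -0.10 (-0.51 to 0.31) in Adm+/- mice, with edgeR adjusted p of 0.238 and 0.728, and without both libraries that stood apart they were -0.08 and 0.09. The WT value was -0.08 without WT PBS 5 alone. *Aqp5*, the water channel, ran from 79.8 to 120 CPM over the WT libraries and from 90.4 to 99.2 CPM over the Adm+/- libraries, with log2 changes of 0.04 (-0.27 to 0.35) and -0.01 (-0.32 to 0.30). *Emp2*, the tetraspan protein, ran from 617 to 774 CPM in WT PBS, from 646 to 707 CPM in WT LPS, 688 to 695 CPM in Adm+/- PBS and 672 to 711 CPM in Adm+/- LPS. Its log2 changes were -0.07 (-0.28 to 0.14) and 0.01 (-0.20 to 0.22).

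*Akap5* and *Clic5* did not pass the test, but in Adm+/- mice each LPS library measured below each PBS library. *Akap5*, the kinase anchor, ran from 448 to 527 CPM in PBS and from 388 to 429 CPM in LPS libraries, with a log2 change of -0.27 (SE 0.14, edgeR adjusted p 0.168). *Clic5*, the chloride channel protein, ran from 330.5 to 418 CPM in PBS and from 289 to 320 CPM in LPS libraries, with a log2 change of -0.29 (SE 0.14, adjusted p 0.132). In WT mice the groups overlapped for both genes, at 382 to 588 against 431 to 478 CPM for *Akap5* and 309 to 440 against 352 to 428 CPM for *Clic5*, with log2 changes of -0.14 and 0.01 (adjusted p 0.493 and 0.949). The WT value of *Akap5* was -0.30 (edgeR adjusted p 0.0575) without WT PBS 5 and -0.0060 without WT PBS 3. Without both libraries that stood apart, *Akap5* had -0.30 (adjusted p 0.0327, edgeR) in WT and -0.32 (adjusted p 0.015) in Adm+/- mice, and *Clic5* had -0.11 (adjusted p 0.493) and -0.37 (adjusted p 0.0243), all below the size required for a call.

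The second question was whether the *Adm* genotype changed these genes or their response. In PBS, 0 of the 10 were called in either direction by edgeR, and 0 passed an unadjusted p under 0.05. Of all genes, 0 were called, so that the background was 0% in each direction, 344 passed an unadjusted p under 0.05, and DESeq2 and limma-voom also called 0. The 10 log2 differences ran from -0.18 (*Ager*) to 0.21 (*Cav1*). The groups overlapped for all 10, where 4.99% of all genes did not overlap. In LPS, 0 of the 10 were called by edgeR, DESeq2 or limma-voom, where edgeR called 0.327% of all genes higher and 1.72% lower in Adm+/- mice. *Clic5* alone of the 10 passed an unadjusted p under 0.05, as did 2275 of the 15885 genes tested. Its log2 difference was -0.31 (95% interval -0.61 to -0.01, edgeR adjusted p 0.33). For 4 genes the LPS groups did not overlap, *Rtkn2* higher and *Cav1*, *Akap5* and *Clic5* lower in Adm+/- mice, against 24.6% of all genes. For the difference between the genotypes in the LPS response, 0 of the 10 were called by any of the 3 tools. Of all genes, edgeR called 0% higher and 0.145% lower. At an unadjusted p under 0.05, 0 of the 10 and 1247 of the 15885 genes passed. These comparisons share libraries. For *Cav1*, *Rtkn2* and *Clic5* the intervals of the difference reached -1.29, 0.76 and -0.73 and included 0.

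**Figure D3:**
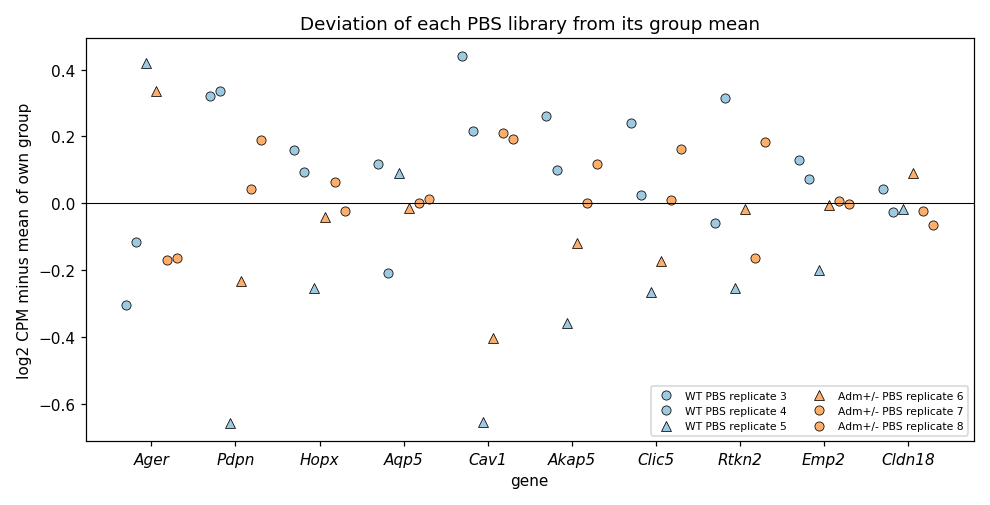
Log2 CPM of each gene in the 6 PBS libraries, less the mean of the library's own group (y axis). Triangles are WT PBS 5 and Adm+/- PBS 6, which lie above 0 for *Ager* and below 0 for *Pdpn*, *Hopx*, *Cav1*, *Akap5*, *Clic5*, *Rtkn2* and *Emp2*.

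The spread of the PBS libraries was uneven among the 10 genes. The SD of log2 CPM in WT PBS was 0.58 for *Cav1* and 0.57 for *Pdpn*, and 0.04 for *Cldn18*. WT PBS 5 lay 0.66 below its group's mean for both *Pdpn* (-0.66) and *Cav1* (-0.66) and above it for *Ager* (0.42). Adm+/- PBS 6 deviated in the same direction for these, at -0.23, -0.40 and 0.34. The GC content of the longest transcript is 59.4% for *Ager* and 64.0% for *Aqp5*, and runs from 42.6% (*Cav1*) to 49.3% (*Emp2*) among the other 8 genes. The part of GC content or of these libraries' composition in the deviations was not tested.

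Other genes of type I cells moved both ways. Of 20 further genes that mark them, 4 were called higher and 4 lower in WT mice, and 5 higher and 2 lower in Adm+/- mice, with median log2 changes of -0.06 and 0.01. *Timp3*, an inhibitor of metalloproteinases, was called higher in both, at 1.01 (SE 0.16) and 1.34 (SE 0.16), as were *Gramd2* (0.78 and 1.06) and *Cyp2b10*, a cytochrome P450 (0.88 and 0.98). Subunits of the epithelial sodium channel were also higher, *Scnn1g* in both (0.69 and 1.06) and *Scnn1b* in Adm+/- mice (0.60, edgeR adjusted p 0.000893, against 0.28 and 0.0572 in WT mice). *Igfbp2*, which binds insulin-like growth factors, was called lower in both (-1.53 and -1.11), as was *Ndnf* (-0.94 and -1.48). *Igfbp2* was highest in WT PBS 5 and Adm+/- PBS 6, at 194 and 164 CPM, against 67.6 to 92.1 CPM in the other PBS libraries. In WT mice *Sema3e* (-0.55) and *Vegfa*, the endothelial growth factor (-0.51), were called lower, with -0.46 and -0.29 in Adm+/- mice. Without WT LPS 9 the WT counts were 3 higher and 1 lower, so *Igfbp2* and *Ndnf* did not both keep their WT calls. Without both libraries that stood apart the WT counts were 3 and 3.

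**Figure D4:**
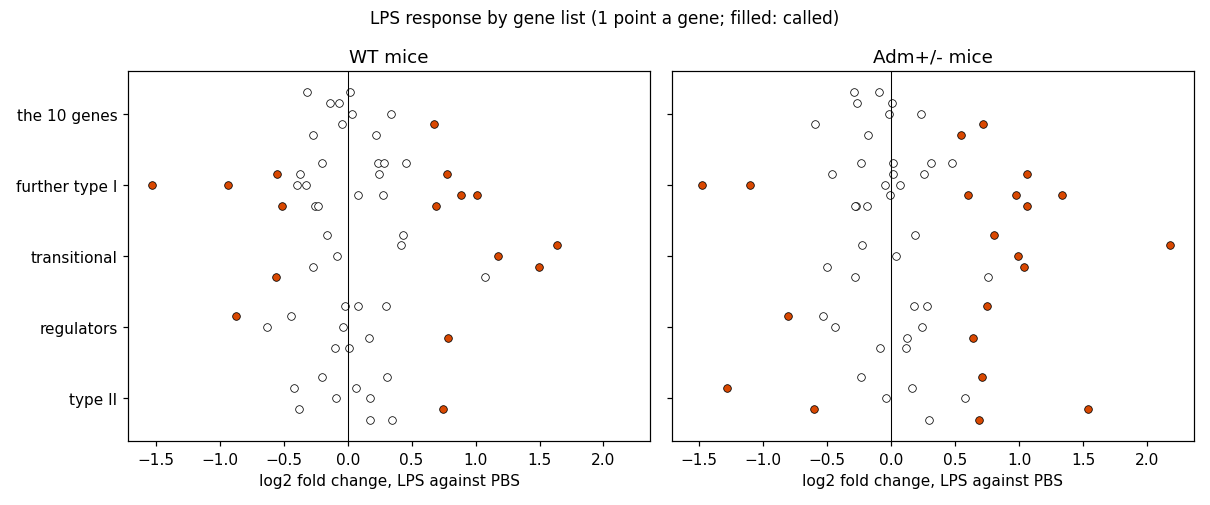
Log2 fold change, LPS against PBS (x axis), of every tested gene of 5 lists, 1 point a gene, in WT and Adm+/- mice, with called genes filled. The 10 genes ran from -0.32 to 0.68 in WT and from -0.59 to 0.72 in Adm+/- mice. Some other lists reached further, with *Cdkn1a* at 1.64 and 2.18 and *Igfbp2* at -1.53 and -1.11. In Adm+/- mice the lower end of the transitional genes was nearer 0, at -0.50, and the regulators reached 0.75.

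Of 10 genes of the transitional state between type II and type I cells, 3 were called higher and 1 lower in WT mice and 4 higher and 0 lower in Adm+/- mice, with median log2 changes of 0.43 and 0.47. *Cdkn1a*, a cell cycle inhibitor, changed by 1.64 and 2.18, *Lgals3*, galectin 3, by 1.49 and 1.04, and *Cldn4*, a claudin, by 1.18 and 0.99, all called. *Areg*, an EGF receptor ligand, was called in Adm+/- mice (0.80), and *Itgb6*, an integrin subunit, was called lower in WT mice (-0.56). The keratins *Krt8* and *Krt18* were not called, at -0.08 and -0.16 in WT and 0.03 and 0.18 in Adm+/- mice. Neutrophil RNA moved with these lists: the summed level of 10 neutrophil genes ran from 59.5 to 185 CPM in WT PBS and 1698 to 2965 CPM in WT LPS, and from 40.7 to 68.3 CPM in Adm+/- PBS and 1606 to 1922 CPM in Adm+/- LPS. Within WT LPS, the summed level of the 10 transitional genes was 742, 533 and 659 CPM in LPS 9, 10 and 11, in the order of the squamous sums of 3409, 33.4 and 1749 CPM. The part of neutrophil or squamous RNA in these lists was not tested. Without WT LPS 9, 2 transitional genes were called higher and 0 lower in WT mice, where *Cldn4* and *Itgb6* lost their calls. Without both libraries that stood apart, 5 were called higher and 1 lower in WT mice.

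A list of 11 genes held regulators of type I cell identity and the YAP targets *Ctgf* and *Cyr61*. Of these, 1 was called higher and 1 lower in WT mice, and 2 higher and 1 lower in Adm+/- mice. *Klf5*, a zinc finger factor, was called higher in both (0.79 and 0.64) and *Tead2*, a DNA-binding partner of YAP and TAZ, lower in both (-0.87 and -0.81). *Ctgf*, a YAP target, was called higher in Adm+/- mice (0.75). *Yap1*, *Wwtr1* and *Nkx2-1* were not called, at -0.02, 0.01 and -0.10 in WT and 0.18, 0.11 and -0.09 in Adm+/- mice. Of 10 type II pneumocyte genes, 1 was called higher in WT mice (*Sftpd*, 0.75), and 3 higher and 2 lower in Adm+/- mice, with *Sftpd*, surfactant protein D, at 1.54 and *Etv5*, an ETS factor, at -1.28. *Sftpc*, the most abundant, was not called (-0.09 and -0.04). Without WT LPS 9, neither *Klf5* nor *Sftpd* was called in WT mice. There, 0 of the 11 genes were called higher and 1 lower, and 0 type II genes either way.

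Relatives and partners of the 10 genes were also compared. Of 20, 5 were called higher and 1 lower in WT mice and 5 higher and 2 lower in Adm+/- mice. *Cavin2*, a coat protein that works with caveolin 1, measured 429, 463 and 498 CPM in WT PBS, 243, 321 and 365 CPM in WT LPS, 480, 426 and 459 CPM in Adm+/- PBS and 207, 186 and 209 CPM in Adm+/- LPS. It was called lower after LPS in both genotypes (-0.58 and -1.18) and lower in Adm+/- than in WT mice given LPS (-0.62, SE 0.14, edgeR adjusted p 0.04). Without WT LPS 9 it was not called lower in WT mice, where 4 of the 20 were called higher and 0 lower. *Cavin1* was not called (-0.75 and -0.66, adjusted p 0.0718 and 0.089). Of the AGER ligands, *S100a8* and *S100a9*, both neutrophil genes, were higher by 5.17 and 4.71 in WT and 5.86 and 5.49 in Adm+/- mice, while *Hmgb1* was not called (-0.24 in each). *Aqp3*, a relative of *Aqp5*, was higher by 4.83 and 5.17 on the log2 scale. *Clic4*, a relative of *Clic5*, was called higher in Adm+/- mice (0.79). *Cav3*, the muscle caveolin, was called higher in WT mice (1.86), where skeletal muscle genes were also called higher. It was called lower in Adm+/- than in WT mice given LPS (-2.44). Of 5 other lung claudins, 2 were called higher and 0 lower in each genotype, and without WT LPS 9 0 were called in WT mice.

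The 10 genes did not share 1 pattern over the 12 libraries. In WT PBS 5 their standardised log2 CPM ran from -2.24 to 2.44. Among the tested genes whose standardised log2 CPM lay nearest the members' mean profile were *Ift88*, *1700029I15Rik*, *Snx27* and *Slc29a3*, with root mean square differences of 0.62, 0.63, 0.64 and 0.64 standard units over 12 libraries. The mean of 10 profiles is flatter than that of a single gene, so the size of these differences depends partly on scale. None of these genes was called in any of the 5 comparisons.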

How the data were processed

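Per the study's methods and the labels, RNA of whole lungs was made into directional, rRNA-depleted libraries, and the authors trimmed reads with Trim Galore, aligned them to mm10 with HISAT2 and counted them per Gencode gene with featureCounts. The deposited values are raw counts. The Gencode release and the strand setting are not given in the sources used here.

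From the counts, edgeR 4.0.16 (R 4.3.3) fitted 1 coefficient per group over all 12 libraries, with TMM factors and quasi-likelihood F-tests, on the 15885 of 21950 protein-coding genes that passed filterByExpr. P-values were adjusted by Benjamini-Hochberg over all of them, and 95% intervals used the fit's own degrees of freedom. A call needed an adjusted p below 0.05 and a log2 change beyond 0.5. DESeq2 1.42.0, limma-voom (limma 3.58.1), glmTreat, other filters and left-out libraries were alternatives. RPKM used exon lengths of Gencode M21, which held 99.7% of the genes. The code was tested on simulated data. Nothing shows whether the 3 libraries of a group came from separate litters, so p-values measure the spread between these libraries. The members and lists were chosen with earlier results of these data known. Text names all 10 members, up to 4 called genes a list and comparison with the most extreme log2 changes, each quoted cell type's most abundant gene, *Adm* and the 5 genes nearest the members' profile, of which 1 is not reported here. Other genes named were chosen after their values were seen. Of the 8 promoter motifs, 3 were added after the first 5 gave no match.

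Lists also counted, as called higher and lower in WT and then in Adm+/- mice, were fibroblast (2 and 1, 0 and 2, with 0 higher in WT mice without WT LPS 9), squamous epithelium (8 and 0, 0 and 0, of 8 tested), skeletal muscle (10 and 0, 1 and 0), cardiac muscle (0 and 0 in both), neutrophil (9 and 0, 10 and 0) and lymphocyte (0 and 0, 1 and 2).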

Additional observations from a re-analysis of the deposited data

How the results depend on the processing

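No paired analysis was possible because the labels give no pairing between groups. Counts of members called higher or lower stayed at 0 for the genotype comparisons and for the difference between genotypes under every alternative run. In WT mice 0 members were called under glmTreat, with only the 6 WT libraries fitted and without both libraries that stood apart, and 0 to 1 with 1 library left out. Among Adm+/- libraries 0 were called under glmTreat and 0 to 3 with 1 library left out. Genes called in WT mice were 2791, or 1001 under glmTreat, 1152 with only the WT libraries and 1443 to 3074 with 1 library left out, the lowest without WT LPS 9. For LPS in Adm+/- mice they were 3968, or 1695 under glmTreat. For the difference between genotypes they were 23, or 168 (DESeq2), 1 (limma-voom), 13 (glmTreat) and 5 to 65 with 1 library left out. For genotype in LPS they were 325, or 803 (DESeq2), 133 (glmTreat), 548 without both libraries that stood apart and 81 to 573 with 1 left out. The cause of these shifts was not tested, except that glmTreat tests against the size threshold itself and so calls fewer.

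All sign changes were of values that were not called. In WT mice, *Cav1* was 0.016 with limma-voom, and *Clic5* was -0.0078 with all annotated genes and -0.11 without both libraries that stood apart. For LPS in Adm+/- mice, *Emp2* was -0.0064 with all annotated genes and *Ager* 0.090 without both. For genotype in PBS, limma-voom gave 0.039 for *Pdpn* and 0.0011 for *Clic5*, and for genotype in LPS 0.0092 for *Aqp5*. With 1 library left out, log2 changes in WT mice ran from -0.31 to 0.18 (*Cav1*), -0.15 to 0.15 (*Aqp5*) and -0.11 to 0.14 (*Clic5*), and in Adm+/- mice from -0.041 to 0.024 (*Aqp5*), -0.0084 to 0.031 (*Emp2*) and -0.19 to 0.081 (*Ager*). The difference between genotypes ran from -0.11 to 0.31 (*Pdpn*), -0.20 to 0.018 (*Hopx*), -0.00756 to 0.16 (*Cldn18*), -0.26 to 0.038 (*Akap5*), -0.16 to 0.14 (*Aqp5*) and -0.011 to 0.40 (*Ager*). Genotype in PBS ran from -0.26 to 0.15 (*Pdpn*), -0.18 to 0.013 (*Hopx*), -0.0528 to 0.43 (*Cav1*), -0.29 to 0.0026 (*Rtkn2*), -0.064 to 0.013 (*Cldn18*), -0.19 to 0.10 (*Akap5*), -0.060 to 0.096 (*Aqp5*), -0.14 to 0.023 (*Emp2*), -0.37 to 0.058 (*Ager*) and -0.13 to 0.12 (*Clic5*). Genotype in LPS ran from -0.012 to 0.13 (*Pdpn*), -0.029 to 0.14 (*Cldn18*), -0.13 to 0.17 (*Aqp5*) and -0.034 to 0.093 (*Ager*). Alternatives that leave out 2 libraries together for the gene lists, or WT LPS 9, were chosen after seeing the data.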
